A study of Mus musculus with 59 samples.

Results

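In 7 young mice, the 2 histone marks H3K4me3 and H3K27ac were compared within the same uteri by ChIP-seq, the sequencing of DNA bound by an antibody to each mark. These 14 libraries, 7 per mark, made up 14 of the 59 samples in the series, and they were the libraries whose names gave an age of 9 to 11 weeks. The H3K4me3 and the H3K27ac library of an animal were joined by the number of the mouse, and each H3K4me3 peak was matched to the H3K27ac peak that it overlapped most. All animals were C57/B6. The 20 older animals of the series entered a single comparison. Aged group 1 held 4 of them, at 28 to 36 weeks. The 6 mice of aged group 2 were 42 to 48 weeks old. In aged group 3 there were 10, between 54 and 65 weeks. The tissue was labelled uterus, and the labels' protocol named pieces of frozen endometrium, from which 20000 nuclei were taken without fixation and cut with MNase, so each library mixed all cell types of the piece. The stage of the oestrous cycle was not given in the sources used here.

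H3K4me3 is placed by the SET1 and MLL methyltransferase complexes on nucleosomes next to transcription start sites, above all where the DNA is rich in CpG, the substrate of the CXXC domain proteins in these complexes. H3K27ac is placed by the acetyltransferases CREBBP and EP300 at active promoters and also at active enhancers, and it cannot coexist on the same lysine with H3K27me3, the methyl mark of the Polycomb complex. In the uterus, oestrogen and progesterone act through receptors that recruit such coregulators in stroma, epithelium and muscle.

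The 7 young libraries held 7.827 M to 12.76 M reads for H3K4me3 and 8.701 M to 13.336 M for H3K27ac. Reads in peaks made up 39.7% to 75.8% of an H3K4me3 library and 32.3% to 48.7% of an H3K27ac library, and replicate 5 was the lowest in both marks. Values are log2 RPKM (reads per kilobase of peak, scaled to library size, on a log2 scale), quantile normalized within a mark over its 27 libraries, and peak positions are on GRCm38. Peak lists were shared by all 27 libraries of a mark, so a peak could be listed without signal in young animals. Of the listed peaks, 160 of 25827 for H3K4me3 and 175 of 54354 for H3K27ac had no read in any young library.

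The mark listed at fewer places, H3K4me3, was mostly at gene starts, and H3K27ac was mostly away from them. Of the 25827 H3K4me3 peaks, 14517 (56.2%) lay within 1 kb of a RefSeq gene start, 7056 elsewhere in a gene body, 1319 in a flank and 2935 between genes. Of the 54354 H3K27ac peaks, 14224 (26.2%) lay at a start, 26922 in a gene body, 3873 in a flank and 9335 between genes. H3K4me3 peaks covered 53.4 Mb in all and H3K27ac peaks 129.6 Mb. Promoter peaks were of similar width, with a median of 2377 bases for H3K4me3 and 2558 bases for H3K27ac. In gene bodies the median width was 1079 bases for H3K4me3 and 1699 bases for H3K27ac.

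Most H3K4me3 peaks had H3K27ac on them, whereas most H3K27ac peaks lay apart from H3K4me3. An H3K27ac peak overlapped 20883 of the H3K4me3 peaks (80.9%), in 85.9% of promoter peaks, 74.9% of gene-body peaks, 77.0% of flank peaks and 71.9% of intergenic peaks. Seen from H3K27ac, an H3K4me3 peak overlapped 89.0% of promoter peaks, 19.7% of gene-body peaks, 24.8% of flank peaks and 21.0% of intergenic peaks. The promoter peaks of H3K4me3 that met H3K27ac had a median young level of 3.79, and those that did not had a median of 2.07. For H3K27ac at promoters these medians were 1.93 with H3K4me3 and 1.11 without it. Levels of 1 mark are not comparable with levels of the other, because antibody, peak number and scaling differ.

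CpG content set apart the promoters that carried the marks. The promoter window of RefSeq, from 250 bases before to 50 after the start, was found for 17274 protein-coding genes. With 0 to 2 CpG in the window, 7.23% of 3167 promoters had an H3K4me3 peak and 9.38% an H3K27ac peak. With 31 to 67 CpG, 98.6% of 2451 promoters had an H3K4me3 peak and 89.7% an H3K27ac peak. H3K27ac was thus listed at more of the CpG-poorest promoters than H3K4me3, and at fewer from 3 to 5 CpG upward. The order at the poorest promoters rests on 229 H3K4me3 and 297 H3K27ac promoters.

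**Figure D1:**
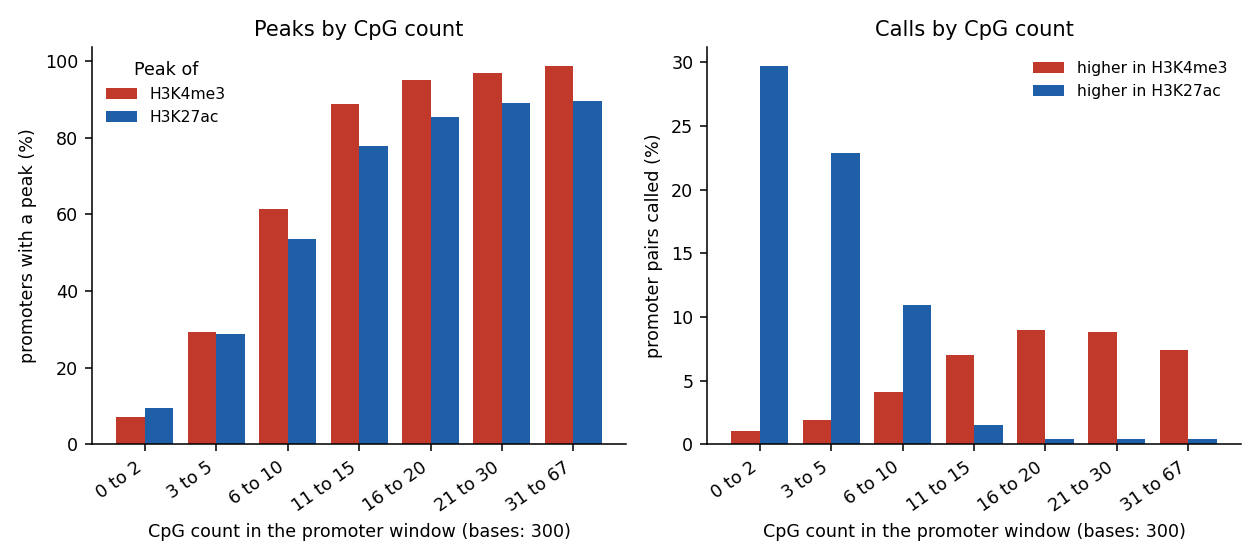
Left, the percentage of promoters with an H3K4me3 peak (red) or an H3K27ac peak (blue) in 7 bins of CpG count in the RefSeq window of 300 bases. Right, the percentage of promoters with both marks that were called higher in either mark. Calls for H3K27ac make up 29.7% at 0 to 2 CpG and 0.41% at 31 to 67 CpG, while calls for H3K4me3 stay between 1.04% and 8.99%. Pairs with few reads in both marks are included.

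The windows of 6 genes show these classes, read from RefSeq (GRCm38.p6) on the strand of the gene, 5′ to 3′, with every CpG in capitals. Each window belongs to the start used here, which need not be the main start of the gene. Cenpm (chr15:82244287-82244586, minus strand), which encodes a centromere protein, and Mks1 (chr11:87852965-87853264, plus strand), which encodes a protein of the ciliary base, are the examples higher in H3K4me3 and hold 31 and 20 CpG. Zmynd8 (chr2:165879481-165879780, minus strand), which encodes a reader of histone acetylation, and Ugt1a1 (chr1:88211709-88212008, plus strand), which encodes an enzyme that glucuronidates bilirubin and oestrogens, are the examples higher in H3K27ac and hold 6 and 2 CpG. Ltf (chr9:111019042-111019341, plus strand), the oestrogen-induced lactoferrin gene, holds 4 CpG. Emx2 (chr19:59458440-59458739, plus strand), a homeobox gene required for the Müllerian duct, holds 26 CpG.
Cenpm: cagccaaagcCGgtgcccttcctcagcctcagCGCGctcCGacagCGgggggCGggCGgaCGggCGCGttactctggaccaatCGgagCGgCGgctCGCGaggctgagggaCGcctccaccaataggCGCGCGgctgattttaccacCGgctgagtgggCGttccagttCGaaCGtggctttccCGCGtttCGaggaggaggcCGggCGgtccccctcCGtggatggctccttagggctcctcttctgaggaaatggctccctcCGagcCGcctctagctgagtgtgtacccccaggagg
Mks1: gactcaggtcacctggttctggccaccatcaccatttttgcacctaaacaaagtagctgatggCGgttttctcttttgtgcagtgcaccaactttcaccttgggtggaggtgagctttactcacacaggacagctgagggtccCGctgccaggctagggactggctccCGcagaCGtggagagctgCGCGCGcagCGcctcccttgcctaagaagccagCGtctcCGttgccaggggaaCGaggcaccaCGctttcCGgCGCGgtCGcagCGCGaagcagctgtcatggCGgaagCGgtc
Zmynd8: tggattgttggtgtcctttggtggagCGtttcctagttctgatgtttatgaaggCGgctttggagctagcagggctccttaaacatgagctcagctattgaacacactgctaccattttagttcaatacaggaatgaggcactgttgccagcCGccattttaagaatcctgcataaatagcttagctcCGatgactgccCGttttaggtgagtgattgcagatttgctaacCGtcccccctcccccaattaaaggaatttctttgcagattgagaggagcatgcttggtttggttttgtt
Ugt1a1: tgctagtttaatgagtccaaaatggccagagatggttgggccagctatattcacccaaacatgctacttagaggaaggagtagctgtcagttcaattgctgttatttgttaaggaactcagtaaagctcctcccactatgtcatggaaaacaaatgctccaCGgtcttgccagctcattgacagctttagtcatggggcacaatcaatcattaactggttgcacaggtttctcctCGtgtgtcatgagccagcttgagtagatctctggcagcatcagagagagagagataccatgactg
Ltf: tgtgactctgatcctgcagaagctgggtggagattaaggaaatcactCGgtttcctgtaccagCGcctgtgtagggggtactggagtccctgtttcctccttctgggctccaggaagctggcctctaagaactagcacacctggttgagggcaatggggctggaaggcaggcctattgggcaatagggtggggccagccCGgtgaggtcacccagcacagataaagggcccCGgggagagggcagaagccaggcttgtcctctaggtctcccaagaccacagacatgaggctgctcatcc
Emx2: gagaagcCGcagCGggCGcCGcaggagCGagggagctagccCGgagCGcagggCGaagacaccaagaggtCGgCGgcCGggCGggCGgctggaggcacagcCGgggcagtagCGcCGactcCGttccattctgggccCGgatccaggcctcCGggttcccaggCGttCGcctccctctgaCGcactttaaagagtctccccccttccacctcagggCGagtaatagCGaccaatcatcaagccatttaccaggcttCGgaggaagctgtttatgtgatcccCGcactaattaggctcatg

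Across the 12303 protein-coding genes with both marks at the promoter, the levels of the marks varied together. The correlation across genes was r = 0.82 (Pearson) and 0.71 (Spearman), and widths of the 2 peaks had a Spearman correlation of 0.78. Genes are not independent replicates, both libraries of an animal came from the same sample, and 2184 of these genes shared an H3K4me3 peak with a neighbour, so the 12303 genes stood for 11197 distinct pairs. The median level was 3.88 for H3K4me3 and 1.98 for H3K27ac. A further 1645 genes had an H3K4me3 promoter peak and no listed H3K27ac peak within 1 kb of the start, with a median H3K4me3 level of 2.14, and 366 genes had the reverse. Genes on the X chromosome (355 pairs) had medians of 3.30 for H3K4me3 and 1.71 for H3K27ac, against 3.90 and 1.99 on autosomes (11948 pairs).

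Hjurp, which encodes the chaperone that loads the centromeric histone, had the highest young mean of both marks, 6.30 for H3K4me3 and 4.29 ± 0.14 for H3K27ac (SD, n = 7). It was the top H3K4me3 peak of all 7 libraries, so normalization gave it a single value and no spread. After it, H3K4me3 was highest at the shared start of Aida and Brox (5.24 ± 0.16), at Adck1 (5.23 ± 0.24) and at Lpar6 (5.20 ± 0.17), a lysophosphatidic acid receptor gene. H3K27ac was highest, after Hjurp, at Exo1 (3.90 ± 0.24), an exonuclease gene of DNA repair, at Lpar6 (3.51 ± 0.10) and at Efcab2 (3.46 ± 0.16). Aida, Adck1 and Lpar6 differed in H3K4me3 by less than their SDs. The 5 input libraries of the series were not used for these levels, so reads gathered at a locus without either mark were not examined.

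**Figure D2:**
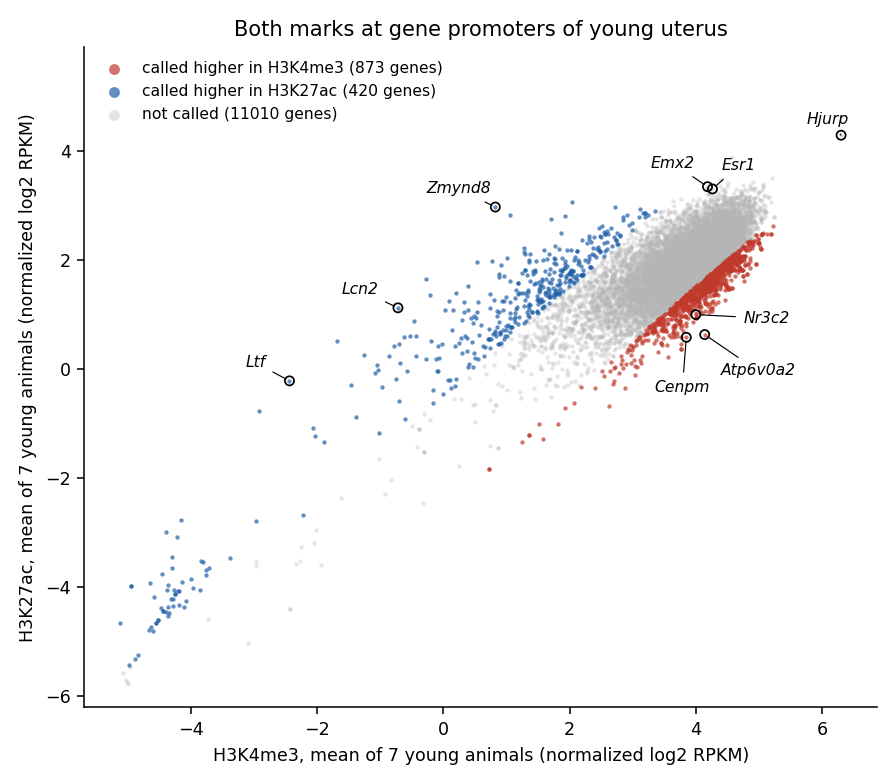
Each point is a protein-coding gene with both marks at its promoter, at its mean over 7 young animals of H3K4me3 (horizontal) and H3K27ac (vertical), in normalized log2 RPKM. The points form a band (Pearson r = 0.82), with the 873 genes called higher in H3K4me3 in red, the 420 called higher in H3K27ac in blue and the 11010 others in grey.

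The widest peak of both marks lay over HOXB genes. The widest H3K4me3 peak, 38981 bases at chr11:96290583-96329563 over Hoxb3 and Hoxb4, and the widest H3K27ac peak, 55796 bases at chr11:96275662-96331457, covered the same HOXB segment. Of the 8 widest H3K4me3 peaks, 3 lay in HOX clusters, the others being the one over Hoxa9, Hoxa10 and Hoxa11 (30187 bases, level 3.63 ± 0.39) and the one over Hoxd9, Hoxd10 and Hoxd11 (22882 bases, 3.40 ± 0.34). HOX genes of these positions give regional identity to the uterus. Others of the 8 were at Lrig1, a regulator of growth factor receptors (25472 bases, 1.81 ± 0.12), and at Nr2f2, the orphan receptor COUP-TFII of uterine stroma (17345 bases, 4.41 ± 0.13). After the HOXB domain, the widest H3K27ac peaks were at Myh9 (41284 bases) and Actn4 (36129 bases), genes of non-muscle myosin and actinin, then in Vmp1 (32809 bases) and at Zfhx3 (32705 bases). A wide peak can stand for several merged peaks, and this was not tested.

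To test how the marks stood relative to each other, the difference H3K4me3 minus H3K27ac was taken in each animal and lowered by 1.48, its median over all 20883 matched pairs. This quantity, called balance below, is 0 at the median pair, so it says whether a promoter had more H3K4me3 than its H3K27ac would give at the median pair, not which mark was more abundant. In the paired limma test with Benjamini-Hochberg adjustment, 854 pairs (4.09%) were at least 2-fold above 0, called higher in H3K4me3. At least 2-fold below 0, called higher in H3K27ac, were 4832 pairs (23.1%). The 5686 pairs called either way were 27.2% of those tested, and 16679 (79.9%) passed an adjusted p of 0.05 at any size of difference. Scaling matters here: with both marks quantile normalized together the counts were 1417 and 2433, and with peak width not divided out they were 2880 and 6402.

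The direction differed by place. Of 12475 promoter pairs, 779 were called higher in H3K4me3 and 805 in H3K27ac, with a median balance of 0.34. Of 5284 gene-body pairs, 52 were called higher in H3K4me3 and 2596 (49.1%) in H3K27ac, with a median of -0.98. Intergenic pairs were similar, with 16 and 940 of 2109 and a median of -0.90, as were pairs in flanks, with 7 and 491 of 1015 and a median of -0.96. Of the pairs, 1153 shared their H3K27ac peak with another H3K4me3 peak.

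By gene, promoters were called higher in H3K4me3 at 873 of 12303 protein-coding genes (7.1%), and higher in H3K27ac at 420 (3.41%). Median levels at the 420 genes were 1.30 for H3K4me3 and 1.33 for H3K27ac. They were 3.89 and 2.03 at genes not called, and 4.17 and 1.50 at the 873 genes. At the median, a call for H3K27ac thus went with low H3K4me3, and H3K27ac was also below that of genes not called. The genes higher in H3K4me3 had promoters with a median of 23 CpG, and those higher in H3K27ac a median of 5 CpG, beside 21 for pairs not called, 17 for genes with H3K4me3 alone and 2 for genes with no promoter peak. At promoters with 0 to 2 CpG, 29.7% of 192 pairs were called higher in H3K27ac, and at those with 31 to 67 CpG, 0.41% of 2194 were. Of the 420 genes higher in H3K27ac, 53 had a mean under 5 reads in both marks. Where both marks have nearly no reads, the difference can lie near 0, and lowering it by 1.48 alone gives a call. These 53 calls cannot be read as more H3K27ac, and they were kept in the shares by CpG count and motif. With at least 20 mean reads required in both marks, 377 of 12000 genes were called higher in H3K27ac. With replicate 5 left out, 910 genes were called higher in H3K4me3 and 420 in H3K27ac.

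Short sequence motifs also differed in share between the classes, as a description of letters in the window, on both strands. GGGCGG, the GC box, was in 70.6% of 748 windows higher in H3K4me3, 29.8% of 342 windows higher in H3K27ac, 67.7% of 9126 windows of pairs not called and 47.5% of all 17274 windows. CCGGAAG, an ETS site, was in 26.1%, 7.31%, 18.6% and 12.2% of these windows, in the same order. TGANTCA, the AP-1 site, was in 3.74% of windows higher in H3K4me3, 48 of the 342 higher in H3K27ac, 4.19% of pairs not called and 7.04% of all. It was also in 11.8% of the 5467 windows with no promoter peak, which have few CpG as well. TATAAA was in 5.75%, 11.7%, 6.26% and 13.2%, in that order, and in 26.8% of windows with no promoter peak. GGGCGG and CCGGAAG each contain a CpG, and TGANTCA and TATAAA contain none, and the shares were not adjusted for CpG count. None of the 6 windows printed above holds TATAAA or TGANTCA.

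Among the 12 genes with the largest balance whose H3K4me3 was at or above its median over promoter pairs, Cenpm had H3K4me3 levels from 3.71 to 3.93 (median 3.88) and H3K27ac levels from 0.33 to 0.97 (median 0.57) over the 7 animals. H3K27ac was low there in all animals, and the balance was 1.78 ± 0.11 (SE, adjusted p = 5.35e-09). Atp6v0a2, a subunit of the vacuolar proton pump, had H3K4me3 levels from 4.06 to 4.21 (median 4.17) and H3K27ac levels from 0.45 to 1.20 (median 0.52). Its balance was 2.02 ± 0.10 (adjusted p = 1.69e-09), but 0.75 with width not divided out, its peaks being 2484 bases wide for H3K4me3 and 6703 bases for H3K27ac. At Mks1 the balance was 1.71 ± 0.11 (adjusted p = 1.02e-08), and it was 0.71 with width not divided out. Taf3, whose protein binds H3K4me3 within the TFIID complex, had 4.67 to 4.88 for H3K4me3 and 1.32 to 1.78 for H3K27ac, and a balance of 1.66 ± 0.07. Dnmt3b, which encodes a DNA methyltransferase, had 4.13 to 4.51 and 0.85 to 1.35, and a balance of 1.65 ± 0.08. The other 7 genes of the 12 named were Tbcd, Mok, St3gal3, Ptges2, Dym, Nfatc2ip and Rundc3b, with balances between 1.61 and 1.71. Ptges2, a prostaglandin E synthase gene, was matched to an H3K27ac peak of 13185 bases that also covers the start of Lcn2, and its balance was -0.17 with width not divided out.

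The same rule gave 12 genes on the other side, with H3K27ac at or above its median, which leaves out genes of low level such as Ltf and Lcn2, described below. Among these 12, Zmynd8 had H3K4me3 levels from 0.51 to 1.05 (median 0.90) and H3K27ac levels from 2.82 to 3.19 (median 2.99). A gene entered by a peak at any of its starts, so these values need not be those of the main Zmynd8 promoter. The H3K4me3 peak there was 6493 bases wide and the H3K27ac peak 18517 bases, and the balance was -3.63 ± 0.12 (adjusted p = 2.05e-11). Ugt1a1 had 0.53 to 1.97 (median 1.01) for H3K4me3 and 1.96 to 3.78 (median 2.89) for H3K27ac, with the highest H3K4me3 in replicate 5 and the highest H3K27ac in replicate 4. Its balance was -3.26 ± 0.18 (adjusted p = 3.31e-09), and Ugt1a6a of the same cluster had -2.51 ± 0.14. Acod1, which encodes the itaconate-producing enzyme of activated macrophages, had -0.36 to 1.50 for H3K4me3 and 1.73 to 2.33 for H3K27ac (balance -2.70 ± 0.25). Nfix, a nuclear factor I gene, had 1.69 to 2.10 and 2.61 to 3.00 (balance -2.38 ± 0.09), and Msh5, a meiotic mismatch repair gene, had 1.26 to 1.91 and 2.51 to 2.84 (balance -2.54 ± 0.11). The others of the 12 were Abhd11os, Bmncr, Rhof, Cpsf4l, Ston1 and Slc7a7, with balances from -2.73 to -2.29.

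**Figure D3:**
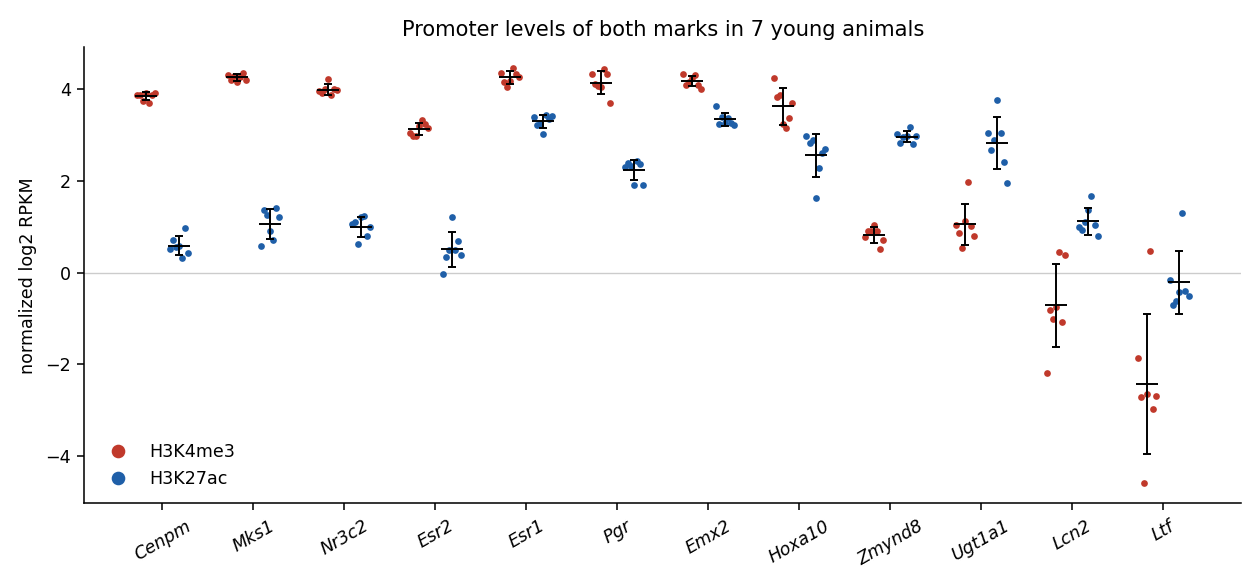
Levels of 12 genes in each of 7 young animals, in normalized log2 RPKM, with H3K4me3 (red) left of H3K27ac (blue) for each gene. Bars are the mean and SD over animals. Cenpm, Mks1, Nr3c2 and Esr2 have low H3K27ac beside their H3K4me3, while at Zmynd8, Ugt1a1, Lcn2 and Ltf the H3K27ac value lies above the H3K4me3 value in each of the 7 animals.

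Marker genes of the 2 main endometrial compartments carried both marks. Of the 20 stromal markers located, all 20 had a promoter peak of each mark, and of the 22 epithelial markers located, 21 had H3K4me3 and 20 had H3K27ac. The only epithelial member without H3K27ac was Foxa2, the transcription factor of the glands (H3K4me3 0.88 ± 0.41), and Prss28, a serine protease gene of the glands, had no promoter peak. Called higher in H3K27ac were 2 of 20 stromal pairs, Lum (-1.46 ± 0.15) and Dcn (-1.26 ± 0.10), which encode proteoglycans of the matrix, and 2 of 20 epithelial pairs, Ltf (-3.70 ± 0.29) and Muc1 (-1.21 ± 0.16), a cell-surface mucin gene. None of either list was called higher in H3K4me3. Of all promoter pairs, 3.41% were called higher in H3K27ac and 7.1% in H3K4me3, and the lists were not tested against these shares. The median balance was -0.26 in the stroma list and -0.20 in the epithelium list, beside 0.39 over all 12303 promoter pairs. Of the list pairs, 0 stromal and 1 epithelial pair lay above the median of all. The stroma and epithelium lists had medians of 12 and 9 CpG per window. Over promoter pairs with 6 to 10 CpG the median balance was 0.09, and with 11 to 15 CpG it was 0.38. The lists were not adjusted for CpG count. Hoxa10, Hoxa11, Hoxd10 and Hoxd11 were stromal markers that stood for 2 shared peaks.

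Over all 17274 promoters of the window table, 66.7% had H3K4me3 and 60.9% had H3K27ac, and 12303 of the 13973 genes with an H3K4me3 promoter peak were paired, so more H3K4me3 than H3K27ac was the general pattern. The marker lists below were not tested against it. Calls in them stand beside 3.41% of all promoter pairs called higher in H3K27ac and 7.1% in H3K4me3. Smooth muscle markers had H3K4me3 at 13 of 14 promoters and H3K27ac at 8, with Cnn1, Actg2, Myocd, Lmod1 and Oxtr, the oxytocin receptor gene, on H3K4me3 alone (1.10 to 2.16). Myh11 (-1.17 ± 0.17) and Tagln (-1.05 ± 0.18), genes of the contractile apparatus, were called higher in H3K27ac. Blood endothelium had H3K4me3 at 12 of 13 and H3K27ac at 9, with Emcn called higher in H3K27ac (-1.11 ± 0.15). Macrophage and monocyte markers had H3K4me3 at 13 of 14 promoters and H3K27ac at 4, and Csf1r, Adgre1, Itgam, Mrc1, C1qa, C1qb, C1qc, Fcgr1 and Ccr2 had H3K4me3 alone, at 0.70 to 1.35. Of the 4 macrophage pairs, 2 were called higher in H3K27ac, Cd68 (-2.34) and Spi1, and 0 in H3K4me3. Of 10 general leukocyte genes, all had H3K4me3 and 9 had H3K27ac, with Ikzf1 (1.25 ± 0.11) and Lcp1 (1.01 ± 0.16) called higher in H3K4me3. T and NK cell markers had H3K4me3 at 5 of 13, markers of liver, brain, heart and pancreas at 4 of 18, and germ cell markers at 2 of 11. In tissue pieces, fewer cells of a type and less of a mark per cell cannot be told apart, and a peak has to be detected over the whole tissue to be listed.

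**Figure D4:**
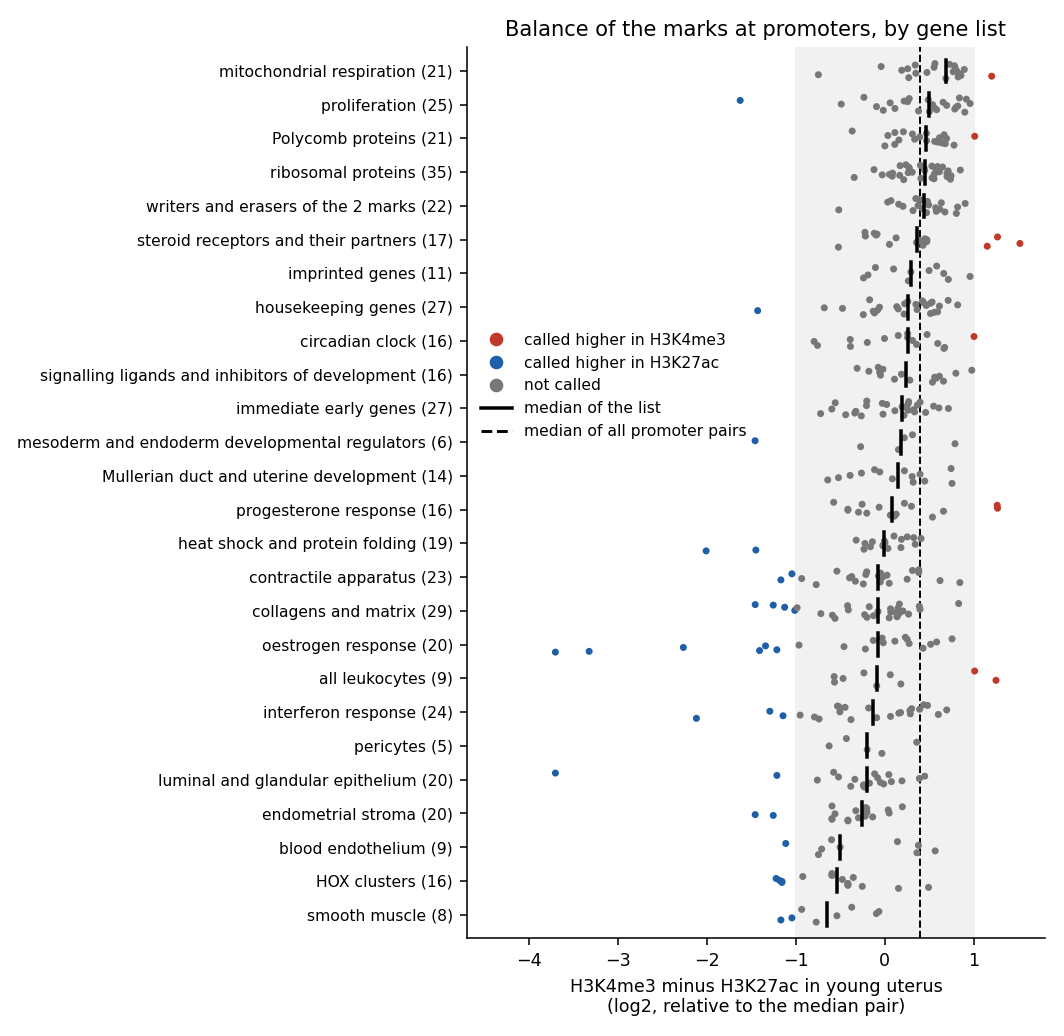
The balance, H3K4me3 minus H3K27ac in young uterus on the log2 scale, of each gene with both marks in 26 gene lists of at least 5 such genes, with the number of genes in brackets. The dashed line is the median over all promoter pairs (0.39), black bars are list medians, and the grey band spans differences under 2-fold; list medians run from -0.66 (smooth muscle) to 0.69 (mitochondrial respiration).

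Genes of the steroid receptors differed in balance among themselves. Esr1, the main uterine oestrogen receptor, had H3K4me3 levels from 4.06 to 4.47 (median 4.27) and H3K27ac levels from 3.04 to 3.44 (median 3.35), and a balance of -0.52 ± 0.05. Esr2, the other oestrogen receptor, had 2.97 to 3.33 (median 3.16) and -0.04 to 1.20 (median 0.48), with a balance of 1.15 ± 0.15 (adjusted p = 4.77e-06). H3K27ac was low at Esr2 in all 7 animals. Pgr, the progesterone receptor, had 3.70 to 4.45 and 1.91 to 2.44 (balance 0.43 ± 0.07). Nr3c2, the mineralocorticoid receptor, was called higher in H3K4me3 (1.52 ± 0.10), as was Fkbp5, a co-chaperone of these receptors (1.27 ± 0.12). Of the 17 pairs in this list, 3 were called higher in H3K4me3 and 0 in H3K27ac, beside 7.1% and 3.41% of all promoter pairs. The list median of 0.36 was close to the 0.39 of all pairs.

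Of 20 pairs of oestrogen-responsive genes, 6 were called higher in H3K27ac, namely Ltf, Lcn2, Padi1, C3, Padi4 and Muc1, and 0 in H3K4me3, beside 3.41% and 7.1% of all promoter pairs. Ltf had H3K4me3 levels from -4.59 to 0.47 (median -2.70) and H3K27ac levels from -0.70 to 1.31 (median -0.43), with replicate 5 highest in both. Its balance was -3.70 ± 0.29 (adjusted p = 4.83e-08). Lcn2, the lipocalin gene, had -2.19 to 0.44 (median -0.83) and 0.79 to 1.67 (median 1.03), again with replicate 5 highest, and a balance of -3.32 ± 0.28. The wide H3K27ac peak matched to Ptges2, named above, also covers the start of Lcn2. The H3K27ac level and the balance of Lcn2 may therefore not belong to its promoter alone. C3, the complement gene, had 0.92 to 2.15 and 1.06 to 1.81 (balance -1.41 ± 0.16). In contrast Wnt4, a signal of stromal decidualization, had 2.39 to 2.94 and -0.46 to 0.87 (balance 0.75 ± 0.17), and Mcm3, a replication helicase gene, had 2.89 to 3.29 and 0.75 to 1.47 (balance 0.58 ± 0.13). The 6 called genes have 3 to 8 CpG in their windows, and the list had a median of 10 CpG per window. Among all promoter pairs with 3 to 5 CpG, 22.86% were called higher in H3K27ac, and among those with 6 to 10 CpG, 10.96%. The list was not tested against these shares, so its calls cannot be set apart from low CpG content.

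Of 16 pairs of progesterone-responsive genes, 2 were called higher in H3K4me3, beside 7.1% of all promoter pairs. These were Fkbp5, named above, and Zbtb16, a transcription factor gene of decidual cells, with 3.60 to 4.50 for H3K4me3 and 0.50 to 1.91 for H3K27ac (balance 1.26 ± 0.08). Ihh, the epithelial hedgehog ligand, had 3.02 to 3.99 and 1.10 to 2.04 (balance 0.53 ± 0.11), and its target Ptch1 in the stroma had 3.47 to 3.92 and 1.95 to 2.39 (balance 0.11 ± 0.07). Hand2, the stromal factor that restrains epithelial growth, had 3.13 to 4.07 and 1.56 to 2.87 (balance -0.30 ± 0.08). Areg, Bmp8a and Calca had H3K4me3 of 2.75 ± 0.35, 2.52 ± 0.23 and 3.45 ± 0.13 without a listed H3K27ac peak.

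In the list of uterine development, Emx2 had H3K4me3 levels from 4.02 to 4.33 (median 4.17) and H3K27ac levels from 3.23 to 3.65 (median 3.27), over peaks of 15890 and 17002 bases, and a balance of -0.64 ± 0.05. Pax8, a regulator of the Müllerian epithelium, had -0.52 ± 0.08, and Wnt7a, the epithelial ligand of uterine patterning, had 0.45 ± 0.15. Of 14 pairs, 0 were called, while 7 genes had H3K4me3 alone, at 0.68 to 3.00, among them Wnt9b, Lhx1, Dach2 and Lef1. Of 28 HOX genes located, 21 had H3K4me3 and 16 had H3K27ac, in 11 distinct pairs. Hoxc10 (-1.22 ± 0.19), Hoxb8 (-1.18 ± 0.07), Hoxb3 and Hoxb4 (a shared peak, -1.16 ± 0.07) were called higher in H3K27ac, and the list median was -0.54. Over all promoter pairs, 3.41% were called higher in H3K27ac and 7.1% in H3K4me3. Hoxa2, Hoxa5, Hoxa13, Hoxc11, Hoxd4, Hoxd12 and Hoxd13 had no promoter peak.

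Of 36 neural regulators located, 18 had an H3K4me3 promoter peak and 1 had H3K27ac, Dlx5 (3.25 ± 0.23 and 2.07 ± 0.14), a homeobox gene of the uterine epithelium as well as the forebrain. The other 17, among them Atoh1 (2.26 ± 0.30), Olig1 (1.61 ± 0.44), Pou4f1 (1.73 ± 0.73) and Sox2 (0.48 ± 0.37), had H3K4me3 levels with a median of 1.58, below the 2.14 of all genes with H3K4me3 alone. The list had a median of 23.5 CpG per window. Of 30 regulators of mesoderm and endoderm, 17 had H3K4me3 and 6 had H3K27ac, Runx2, Myf6, Gata6, Osr1, Twist1 and Sox9. Of these 6, Runx2 was called higher in H3K27ac (-1.46 ± 0.22), beside 3.41% of all promoter pairs. Of 36 developmental ligands and inhibitors, 29 had H3K4me3 and 16 had H3K27ac, and Nog, Grem1, Fgf8 and Nodal were among the 13 with H3K4me3 alone. H3K27me3 was not analysed here.

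Genes used in every cell type had both marks at nearly all promoters. Calls in these and the following lists stand beside 7.1% of all promoter pairs higher in H3K4me3 and 3.41% higher in H3K27ac. All 35 ribosomal protein genes had both marks, with a median balance of 0.45 and 0 called. All 21 respiratory chain genes had both, with a median of 0.69 and Ndufb5 called higher in H3K4me3. Of 23 writers and erasers of the 2 marks, 22 had both (median 0.44), and all 21 Polycomb genes had both (median 0.47). Immediate early genes, 27 of 28 with both marks, had a median of 0.19 and 0 calls, with Junb at -0.72 ± 0.06 and Myc at 0.71 ± 0.06. Interferon-responsive genes had a median of -0.14, and Ifit3 (-2.12 ± 0.19), Rsad2 and Oas2 were called higher in H3K27ac. Of 29 matrix gene pairs, 4 were called higher in H3K27ac, adding Postn (-1.13 ± 0.16) and Fbln1 (-1.01 ± 0.10) to Lum and Dcn. Hspa1a and Hspa1b, near-identical heat shock genes among which reads can be split, were both called higher in H3K27ac.

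The young animals differed among themselves in the same direction for both marks at variable genes. The median SD over 7 animals was 0.13 for H3K4me3 and 0.22 for H3K27ac, where counting error alone at the median of 449 and 124 reads per peak gives about 0.068 and 0.13. At 138 genes the SD was above 0.5 in both marks. The median correlation of the marks over the 7 animals was 0.77 at these genes, beside 0.31 over all 12303. It was positive in 128 of the 138, beside 72.6% of all. The 138 genes were chosen by spread in these same values, so their correlation is not independent of the choice. The animal highest in H3K4me3 was also highest in H3K27ac at 85 of the 138. Replicate 5 was highest at 45 of them for H3K4me3 and at 47 for H3K27ac, and without it 88 genes passed the same SD, with a median correlation of 0.78. Without replicates 4 and 5 there were 68 such genes, with a median of 0.77 over 5 animals.

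Among the 10 genes with the largest spread in both marks, Sftpd, a surfactant lectin gene, had H3K4me3 levels of -1.81, -2.35, -2.01, -0.86, 0.36, -1.13 and 2.31 in replicates 1 to 7, and H3K27ac levels of -0.59, -0.43, -0.29, 0.43, 1.68, 0.22 and 2.02. Replicates 7 and 5 were highest in both marks. Mmp7, a matrix protease gene of uterine epithelium, had -2.04, -1.28, -1.50, -1.68, 0.78, -0.87 and 1.37 for H3K4me3, and -0.87, -1.36, -0.42, -0.23, 1.02, -0.02 and 0.59 for H3K27ac, and replicates 5 and 7 were again the highest pair. Urah was also highest in replicates 5 and 7 in both marks. Il1f8, an interleukin 36 gene, was highest in replicate 7 in both (0.98 for H3K4me3 and 1.99 for H3K27ac). Togaram2 and Ptprh stood out in replicate 5 alone, with H3K4me3 at 1.92 and 0.96 and H3K27ac at 1.85 and 1.84. Duxbl1, Zfp97 and Gvin1, also in the 10 with the largest spread, are members of multigene families and had means of 1.29 to 5.86 reads, so their values are uncertain. Tmprss11g had 6.14 and 9.71 reads.

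The epithelial and stromal lists differed between the animals in opposite directions. The mean of the 20 epithelial pairs was 3.18 in replicate 4 and 3.29 in replicate 5 for H3K4me3, and 2.47 to 2.78 in the other 5 animals. For H3K27ac it was 2.07 and 2.11 in replicates 4 and 5, and 1.39 to 1.59 in the others. The stroma list ran the other way, with 3.08 and 3.22 for H3K4me3 in replicates 4 and 5 against 3.38 to 3.73 in the others, and 1.75 and 2.05 for H3K27ac against 2.36 to 2.54. This fall was not particular to stroma. In blood endothelium, H3K27ac was 0.64 and 0.72 in replicates 4 and 5, against 0.97 to 1.30 in the others. In pericytes it was 0.96 and 1.02 against 1.22 to 1.49. The matrix list, which shares Lum and Dcn with stroma, had 1.16 and 1.31 against 1.57 to 1.70. The mean of 8 smooth muscle pairs followed neither epithelium nor stroma, with H3K4me3 at 2.15 in replicate 4, 2.58 in replicate 5 and 2.81, its highest, in replicate 2. The mean of 27 housekeeping genes stayed between 3.86 and 3.90 for H3K4me3 and between 2.15 and 2.30 for H3K27ac. Epithelial minus stromal means were thus -1.26 to 0.10 for H3K4me3 and -1.07 to 0.32 for H3K27ac, above 0 in replicates 4 and 5 alone. The share of epithelium in each piece was not analysed here, and its part in the spread of single genes was not tested.

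**Figure D5:**
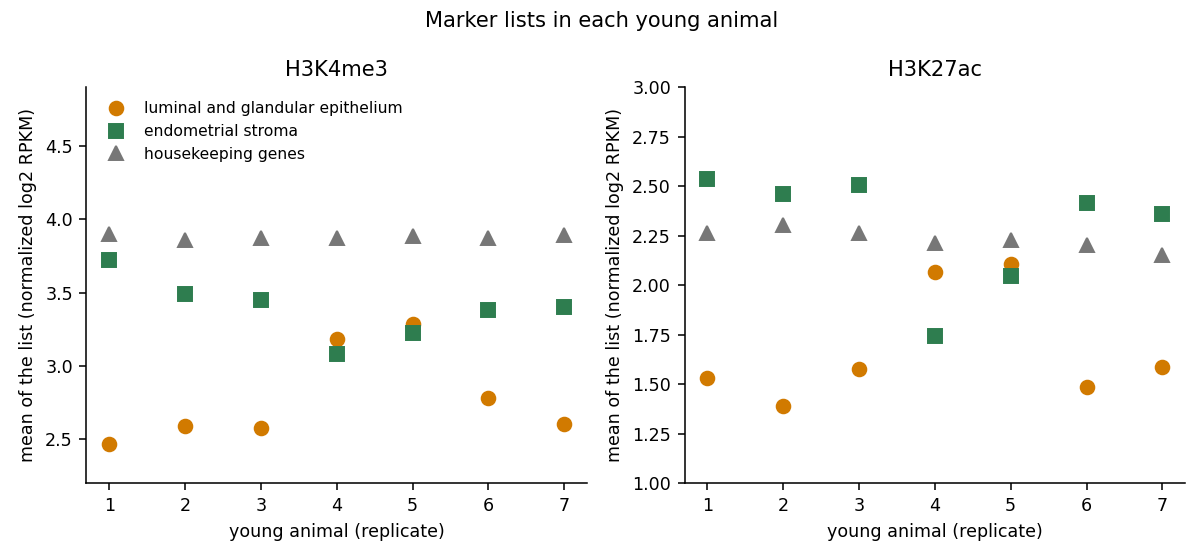
Means of the epithelial (orange circles), stromal (green squares) and housekeeping (grey triangles) lists in each of 7 young animals, in normalized log2 RPKM, for H3K4me3 (left) and H3K27ac (right). In replicates 4 and 5 the epithelial mean is level with or above the stromal mean, and in the other 5 animals it lies below it in both marks.

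The balance in young uterus was close to the mean of the 3 aged groups, while more pairs differed from aged group 3 alone. Tested as young minus the mean of the 3 aged groups over 27 animals, 17 of 20883 pairs (0.0814%) passed an adjusted p of 0.05 in limma, 3 higher and 14 lower in young, and 2048 had an unadjusted p under 0.05. The Spearman correlation of young and aged balance across pairs was 0.97, and both share the peaks and their widths. Foxc1, a forkhead gene of mesenchyme and vessels, had a balance from 0.71 to 1.31 (median 1.05) in young animals and from -0.10 to 0.78 (median 0.23) in aged animals, a difference of 0.75 ± 0.12 (adjusted p = 0.00323). The ranges overlapped between 0.71 and 0.78. The call was lost without pairing the marks by animal (difference 0.75, adjusted p = 0.886), against aged group 1 alone (0.59, adjusted p = 1.00) and with the digit of the library code in the fit (0.77, adjusted p = 0.0781). At Foxc1, H3K4me3 was 2.19 ± 0.29 in young and 3.54 ± 0.60 in aged animals, and H3K27ac was -0.33 ± 0.40 in young and 1.81 ± 0.72 in aged animals. Larp4b, which encodes an RNA-binding protein, had a balance from -0.11 to 0.74 in young animals and from -0.45 to 0.23 in aged animals, a difference of 0.49 ± 0.10 (adjusted p = 0.0221). That call was lost without young replicate 1, 5, 6 or 7, with adjusted p from 0.0549 to 0.106, and without pairing (adjusted p = 0.257), and the adjusted p over all its alternatives reached 0.886. Of the 17 pairs, 5 were at promoters, 9 in gene bodies and 3 between genes. Against aged group 3 alone, 186 pairs (0.891%) were higher and 985 (4.72%) lower in young. Against aged group 1 alone 0 were higher and 0 lower, and against aged group 2 alone 2 were higher and 1 lower.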

How the data were processed

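The authors deposited 1 table per mark, holding log2 RPKM of every peak in each of 27 libraries, and all sample columns were assigned. Per the submitters' processing notes, the build was GRCm38, and the tools were deepTools 3.5.1, Bowtie2, DESeq2, MACS2 2.2.9.1, ChIPseeker 1.34.1 and DiffBind 3.8.0, whose roles are not given in the sources used here. Reads computed back from the values were whole within 0.05 in 100% of values, a peak without reads being stored as 0.9 reads.

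Peaks on chromosomes 1 to 19 and X were used, and values were quantile normalized here within each mark. Starts came from RefSeq (GRCm38.p6) promoter windows or, for 3270 genes, gene extents. A gene entered by its H3K4me3 peak within 1 kb of any of its starts, the nearest and then the widest of several. That start need not be its main one. With the peak of the highest mean instead, 886 promoters were higher in H3K4me3 and 398 in H3K27ac. Values of the named genes were not examined under that choice. Balance was fitted with limma 3.58.1 (R 4.3.3, eBayes with trend, two-sided, Benjamini-Hochberg over 20883 pairs), the animal being the pair: series text gives 2 libraries per sample, and each H3K4me3 library correlated best with the H3K27ac library of its own animal (r from 0.156 to 0.456). Each animal had 1 library per mark, so p-values hold library preparation too.

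Members and the 34 gene lists (653 of 694 genes located) were chosen with earlier results of these data known. Named genes were the 12 largest called balances each way with the same sign in 7 animals and the higher mark at or above its median, the 8 highest levels and widest peaks, the 10 largest spreads, called promoters of young against aged, and the extremes of each list. Other genes named from the lists were chosen after their values were seen. Some list members are not reported here by name. Tests were checked on simulated data with independent normal noise, a check that does not bear on calls at pairs with few reads.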

Additional observations from a re-analysis of the deposited data

Results flagged for a closer look

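Of 120 sets of 7 young values examined, 15 had 1 animal farther from the rest than Dixon's 95% limit of 0.568 of the range, and chance flags about 1 in 20 groups. That rate does not apply to these 15, because Togaram2 and Ptprh were chosen for their spread between animals and the peak shared by Abce1 and Anapc10 was counted under both genes. Replicate 5 was that animal in most. It had 39.7% of H3K4me3 reads in peaks, the lowest of the group. Its list means stood apart for the oestrogen response in H3K27ac (1.65, highest), and in H3K4me3 for developmental ligands and inhibitors (2.85, lowest) and writers and erasers of the marks (3.91, lowest). Its balance stood apart at Atp6v0a2 (1.53) and Msh5 (-3.03). Its H3K4me3 level stood apart at the shared peak of Abce1 and Anapc10 (5.55), at Togaram2 (1.92) and at Ptprh (0.96), and its H3K27ac level at Togaram2 (1.85) and Ptprh (1.84). Replicate 4 was lowest in H3K27ac over the HOX list (1.84), replicate 7 in H3K4me3 over the steroid receptor list (3.48), and replicate 3 in balance at Dnmt3b (1.34). The low share of reads in peaks moves with the values of replicate 5, and its part in them was not tested.

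The balance of Foxc1 (0.75) and of Larp4b (0.49), young minus aged, differed between the age groups by the limma test.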

How the results depend on the processing

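Scaling moved the balance counts most. With both marks quantile normalized together, 1417 pairs were higher in H3K4me3 and 2433 in H3K27ac, and 180 promoters were higher in H3K27ac. With peak width not divided out, 2880 pairs and 2866 promoters were higher in H3K4me3, 683 promoters were higher in H3K27ac, and Ptges2 turned to -0.17. The cause was not tested. Requiring the H3K27ac peak to cover at least 50% of the H3K4me3 peak matched 78.5% of H3K4me3 peaks. Leaving out each young animal gave 832 to 959 pairs higher in H3K4me3 and 4775 to 4830 in H3K27ac, and 847 to 983 and 410 to 426 promoters.

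The counts of young against aged were not stable. Pairs higher in young numbered 0 without the replicate block, which pairs the marks by animal, 6 with values as deposited and 6 with both marks normalized together, 1 to 4 with each young animal left out, 0 against aged group 1, 186 against aged group 3, and 0 when the digit in the library code entered the fit. Pairs lower in young numbered 2 without the block, 67 as deposited, 1 with both marks together, 45 with width not divided out, 3 to 14 with each young animal left out, 0, 1 and 985 against aged groups 1, 2 and 3, and 3 with the digit. Of the values of single genes under the alternatives, 404 kept direction and side of the threshold, 15 lost the call and 1 reversed. Alternatives for the spread between animals were chosen after seeing the data. Depth limits promoters with few reads, where counting error nears the spread.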
